A study of Homo sapiens with 26 samples.

Results

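This report describes 9 genes that encode receptors for neurotrophins, for ligands of the glial cell line-derived neurotrophic factor (GDNF) family and for the ALKAL ligands of ALK. They were taken by gene symbol from the 26485 genes of the deposited count tables. Trophic receptors of the neurotrophin group were represented by NTRK2 (TrkB), NTRK3 (TrkC) and NGFR (p75NTR), the GDNF group by RET, GFRA1, GFRA2 and GFRA3, and the ALK group by ALK and LTK. All 9 passed the filter on low counts in both the cell culture and the xenograft table.

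RNA was sequenced from KELLY, a human neuroblastoma cell line with MYCN amplification, after 72 hours of doxycycline or of DMSO vehicle, in 3 lines made with a lentiviral vector that also encodes green fluorescent protein. One line carried the empty vector (F1HUTG, here EV), and the others carried a doxycycline-inducible short hairpin RNA, sh4 or shAMB, against the transcriptional co-repressor RUNX1T1, each line with 3 DMSO and 3 doxycycline libraries. A further 8 libraries came from KELLY tumors, labelled PDX but grown from this cell line, with 4 tumors of animals on control food (genotype label WT) and 4 on doxycycline food (genotype label RUNX1T1 KO). By the study's methods the tumors were subcutaneous xenografts of hairpin-carrying cells in immunodeficient NOD SCID gamma mice, so doxycycline induced a hairpin there and no gene was deleted, and the labels do not say which of the hairpins they carried. The study describes KELLY xenografts with the hairpin built on an Ambion siRNA sequence, which no label ties to shAMB. Doxycycline itself was given to the EV cells as the control for the drug. The comparison asks how receptor transcripts differ when the hairpin is induced. In culture, the difference between a hairpin line's response and the EV response removes what the drug does alone. The xenografts include no empty vector tumors, so effects of the hairpin and of doxycycline cannot be told apart there.

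RET and the NTRK receptors are receptor tyrosine kinases, which pass a ligand signal on by phosphorylating tyrosines and recruiting adaptors that lead to the ERK and AKT pathways. RET does not bind GDNF-family ligands by itself: the GPI-anchored co-receptors GFRA1, GFRA2 and GFRA3 bind mainly GDNF, neurturin and artemin, in that order, and present them to RET. NTRK2 binds BDNF, NTRK3 binds neurotrophin-3, and NGFR binds all neurotrophins at lower affinity. ALK is a recurrent target of mutation in neuroblastoma, and LTK is its closest relative. These receptors take part in the survival and differentiation of sympathetic neurons, the lineage from which neuroblastoma arises.

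Total counts were 35115908 to 54736731 per library in culture and 47346057 to 62378057 in xenografts. Levels are given as CPM (a library's counts scaled to a common total), and levels are compared between genes only after division by transcript length (CPM per kilobase). The culture and xenograft tables were scaled separately, and values from them are set side by side only as levels. Of the 9 adrenergic neuroblast markers, all 9 reached a mean of 1 CPM in every group. Summed Schwann cell markers were 4.02 to 10.2 CPM, endothelial markers at most 2.27 CPM and leukocyte markers at most 2.70 CPM in any library. Summed fibroblast markers were higher, at 57.8 to 140.2 CPM, with COL1A2 at 0 in the EV libraries. In sh4 they were 83.5 to 107.6 CPM with DMSO and 101 to 140.2 CPM with doxycycline (of 5 tested, 3 rose and 1 fell), and in xenografts 57.8 to 94.8 CPM in controls and 85.7 to 129 CPM in RUNX1T1 KO tumors (1 rose). Their part in the receptor differences was not tested. The tumors grew in mice, and the processing notes name only the human build hg38, so these sums do not measure mouse host cells. Whether mouse reads were counted on human genes was not tested. In bulk RNA, fewer cells that carry a transcript and less of it per cell cannot be told apart. The replicates are not described as separate cultures, so p-values measure the spread between these libraries, which may be technical.

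The RNA of the targeted gene, RUNX1T1, was not called lower in any induced group. Fitted log2 changes of -0.16 (EV), -0.11 (sh4), 0.06 (shAMB) and -0.23 (xenografts) had adjusted p-values of 0.672, 0.117, 0.378 and 0.229 in edgeR's quasi-likelihood test. Every group is therefore named by its label, and a direction given here is that of the libraries labelled doxycycline, or RUNX1T1 KO, against those labelled DMSO, or control. Before induction RUNX1T1 was lower in sh4 DMSO than in EV DMSO, by a log2 difference of -0.29 (adjusted p = 0.0144). The shAMB response of RUNX1T1 was higher than the EV response by 0.21 on the log2 scale (adjusted p = 0.0353). In culture the assignment to treatments rests on reading the table's Pos and Neg columns as doxycycline and DMSO.

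In EV cells 0 of the 9 receptors passed edgeR's test at an adjusted p under 0.05, as 0.0939% of 14905 genes did. At an unadjusted p under 0.05 there were 3 of the 9 and 879 of the 14905 genes, and DESeq2 and limma-voom called 0. In sh4 cells 6 of 9 were higher and none was lower, against 40.9% of all genes called. In shAMB cells 6 were higher and 1 was lower, against 66.0% of all genes. In the xenografts 4 were higher and 2 lower, against 41.1% of 15960 genes. The 9 had median log2 changes of 0.14 (EV), 0.48 (sh4), 1.09 (shAMB) and 0.18 (xenografts), where the medians over all genes tested were 0.01, 0.00, 0.10 and 0.02.

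**Figure D1:**
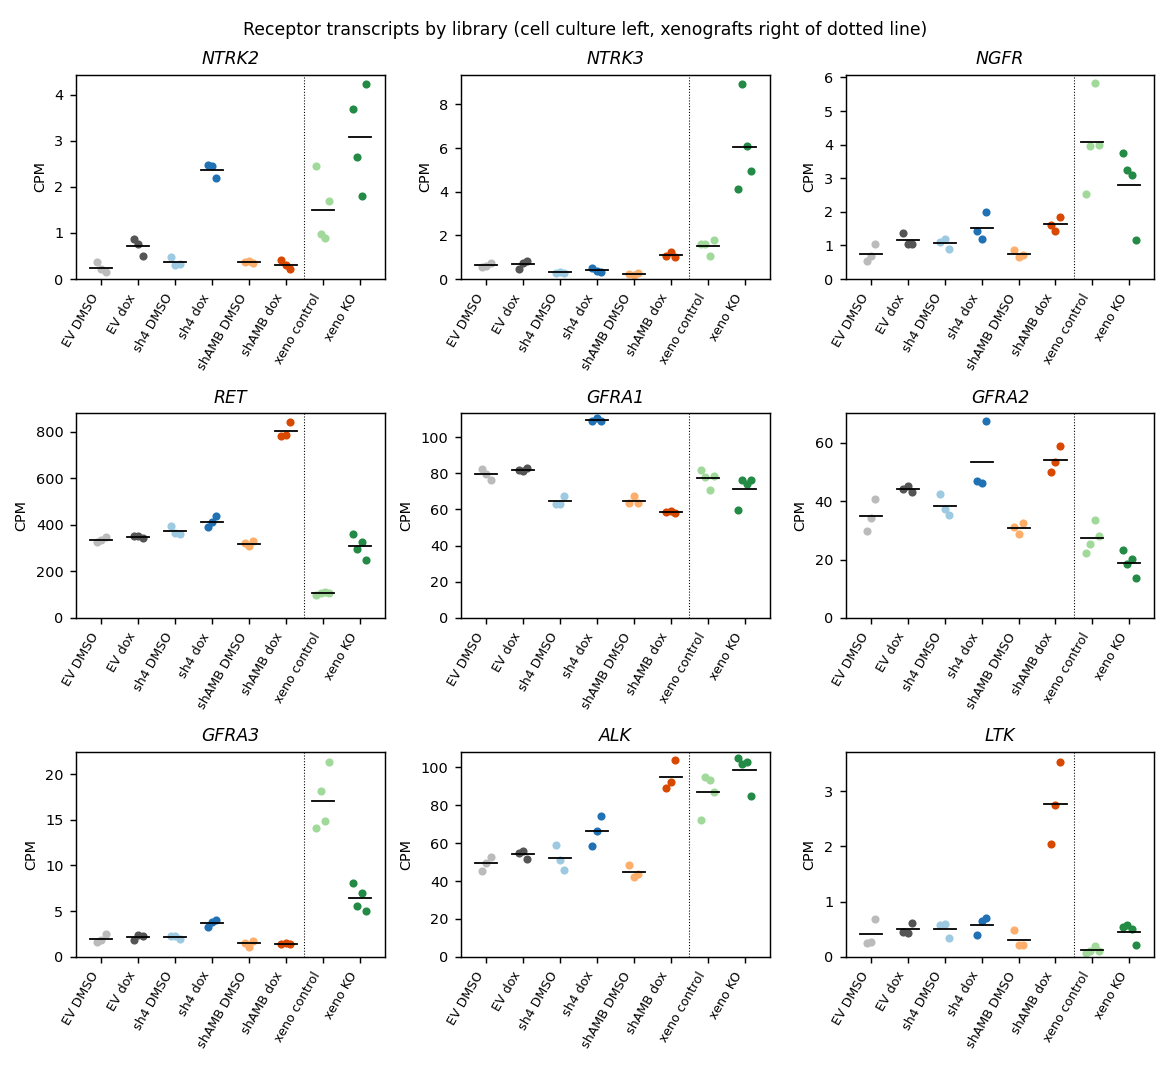
Level of each receptor in CPM (y axis, linear, from 0) in every library, with 1 point per library and a line at the group mean. The 3 shAMB doxycycline libraries hold the highest RET, ALK and LTK values in culture, and among the culture libraries NTRK2 and GFRA1 stand highest in the 3 sh4 doxycycline libraries.

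RET, the signaling receptor of the GDNF family (chromosome 10, 43077069 to 43130351 on the plus strand of GRCh38), was the most abundant of the 9 in every group. Its levels in EV cells were 328, 335 and 346 CPM with DMSO and 350, 351 and 342 CPM with doxycycline, and these groups overlapped. In sh4 cells they were 395, 367 and 360 CPM with DMSO and 392, 411 and 438 CPM with doxycycline, which again overlapped. In shAMB cells RET stood at 320.0, 309 and 329 CPM with DMSO and at 779, 785 and 841 CPM with doxycycline. The shAMB groups were far apart, a 2.51-fold difference (log2 1.33, 95% interval 1.22 to 1.43, adjusted p = 4.7e-12 by edgeR). The sh4 rise of 0.14 on the log2 scale was past the threshold (adjusted p = 0.0255) but lost it in 7 of 14 alternative analyses that could reach it, among them the fits without sh4 DMSO replicate 2 or 3 (log2 0.13 and 0.12) or without sh4 doxycycline replicate 2 or 3 (0.15 and 0.10). With trends of GC content and transcript length removed, an alternative chosen after seeing the data, the shAMB change was 0.64 and still called. In the control xenografts RET was 96.5, 106, 113 and 107 CPM, and in those labelled RUNX1T1 KO it was 359, 298, 324 and 250.3 CPM. Every one of the latter lay above every control, by 2.91-fold on average (log2 1.54, 95% interval 1.29 to 1.79, adjusted p = 8.4e-06).

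ALK (chromosome 2, 29192774 to 29921586, minus strand) encodes the receptor tyrosine kinase mutated in part of neuroblastomas and followed RET closely in culture. Its levels were 48.4, 42.2 and 43.6 CPM in shAMB cells with DMSO and 89.3, 92.0 and 104 CPM with doxycycline, with no overlap. The log2 change was 1.09 (SE 0.10, adjusted p = 1.3e-07), and 0.70 with the GC content and length trends removed. In sh4 cells it was 59.1, 51.3 and 46.0 CPM with DMSO against 58.7, 66.3 and 74.5 CPM with doxycycline, where the groups overlapped but the test called a rise of 0.35 (adjusted p = 0.00957), a call lost when only the sh4 groups entered the fit (adjusted p = 0.0783). The EV libraries ranged from 45.5 to 56.1 CPM over both treatments. In xenografts ALK was 72.1, 94.7, 93.3 and 87.0 CPM in controls and 105, 102, 103 and 84.7 CPM in the RUNX1T1 KO tumors, an overlap, and the log2 difference of 0.18 (95% interval -0.05 to 0.42) did not pass (adjusted p = 0.198).

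LTK, the paralog of ALK (chromosome 15, 41503637 to 41513827, minus strand), was near the detection limit without induction of shAMB. Its counts were 20, 8 and 8 in shAMB DMSO libraries and 91, 157 and 153 in the doxycycline libraries, or 0.493, 0.208 and 0.214 CPM against 2.04, 2.75 and 3.53 CPM. That is the largest fitted change of the 9 receptors (log2 3.16, 95% interval 2.36 to 3.96, adjusted p = 2.6e-06). In sh4 cells, at 14 to 33 counts in each library, LTK changed by 0.20 (95% interval -0.61 to 1.01) and was not called. Control xenografts gave 3, 5, 11 and 6 counts and RUNX1T1 KO tumors 31, 33, 32 and 11 counts; the fitted difference was 1.92 on the log2 scale (adjusted p = 0.00536), with counts this low behind it.

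The windows around the RefSeq starts of RET and ALK are shown because these genes moved together most closely among the abundant receptors, with r = 0.95 across the 18 culture libraries (a description, since the libraries fall into 6 groups). The windows run from 250 bases before the gene start to 50 bases after it. E-box words CACGTG and CAGATG and the RUNX word TGTGGT were searched for on both strands. Of 35116 promoter windows of the same length in the RefSeq table, 7.26% hold CACGTG, 14.7% hold CAGATG and 13.1% hold TGTGGT. Matches are in capitals, and the sequences are those of the GRCh38.p14 assembly from RefSeq, read on the gene's own strand.
RET promoter, chr10:43076819-43077118, plus strand: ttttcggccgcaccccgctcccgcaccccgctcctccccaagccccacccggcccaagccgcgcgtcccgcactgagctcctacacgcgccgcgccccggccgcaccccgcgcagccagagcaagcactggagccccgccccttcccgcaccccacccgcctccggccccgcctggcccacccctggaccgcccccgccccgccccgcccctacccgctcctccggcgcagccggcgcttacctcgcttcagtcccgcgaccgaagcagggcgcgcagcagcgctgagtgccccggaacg
ALK promoter, chr2:29921537-29921836, minus strand: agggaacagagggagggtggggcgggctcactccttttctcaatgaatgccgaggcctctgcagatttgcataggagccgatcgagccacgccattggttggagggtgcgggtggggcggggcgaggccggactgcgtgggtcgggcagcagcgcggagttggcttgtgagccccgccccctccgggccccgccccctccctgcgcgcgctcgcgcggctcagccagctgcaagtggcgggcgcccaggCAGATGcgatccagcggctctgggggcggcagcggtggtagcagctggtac
The RET window holds 41 CpG dinucleotides with 78.7% G and C and none of the 3 words, and the ALK window holds 28 CpG dinucleotides with 71.0% G and C and CAGATG once. Over the 15 windows listed for 7 of the receptors (none is listed for NGFR or GFRA2), CACGTG occurs in 1, a second ALK window, CAGATG in 4 and TGTGGT in 2. A match of these letters is a description of the sequence only.

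The GDNF co-receptors did not all move with RET. Over the culture libraries RET had r = -0.35 with GFRA1, -0.21 with GFRA3 and 0.70 with GFRA2. GFRA1 and GFRA3 were alike (r = 0.81). GFRA1, the co-receptor that binds GDNF itself (chromosome 10, 116056925 to 116274705, minus strand), was 62.9, 63.1 and 67.2 CPM in sh4 cells with DMSO and 109, 110.5 and 109 CPM with doxycycline. The sh4 groups were clearly separate, with a 1.70-fold rise (log2 0.77, SE 0.04, adjusted p = 5.1e-10). In shAMB cells the values were 63.6, 67.2 and 63.5 CPM with DMSO and 58.7, 59.3 and 58.2 CPM with doxycycline, every doxycycline library lower, a change of -0.14 (adjusted p = 0.00539) that became -0.68 with the GC content and length trends removed. In EV cells they were 82.5, 79.4 and 76.4 CPM and 81.7, 81.3 and 82.7 CPM, which overlapped. GFRA1 was also lower in the hairpin lines before induction, with log2 differences of -0.30 for sh4 DMSO and -0.29 for shAMB DMSO against EV DMSO (adjusted p = 0.000565 and 0.000562), calls that were lost when only the groups compared entered the fit (adjusted p = 0.163 and 0.0667). In xenografts it was 81.6, 78.0, 70.8 and 78.4 CPM in controls and 59.5, 76.3, 73.9 and 76.3 CPM in RUNX1T1 KO tumors, and the difference of -0.11 (95% interval -0.33 to 0.10) did not pass, whereas with the GC content and length trends removed it was -0.35 and called (adjusted p = 0.0162).

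GFRA2, which prefers neurturin, was 42.6, 37.2 and 35.3 CPM in sh4 cells with DMSO and 46.9, 46.4 and 67.5 CPM with doxycycline, a separation to which replicate 3 of the doxycycline group contributed the highest value. The log2 change was 0.48 (adjusted p = 0.00855) and 0.28 without that library (adjusted p = 0.0345), and it was not called when only the sh4 groups entered the fit (adjusted p = 0.0704). In shAMB cells the levels were 31.1, 28.6 and 32.5 CPM against 50.2, 53.4 and 58.9 CPM, a rise of 0.82 (adjusted p = 6.9e-05) that became 0.24 with the GC content and length trends removed. In EV cells every doxycycline library (43.2 to 45.1 CPM) was also above every DMSO library (29.9 to 40.9 CPM), a log2 difference of 0.34 that did not pass (adjusted p = 0.672). In xenografts GFRA2 fell by 0.53 on the log2 scale (adjusted p = 0.0297), from 22.4, 25.2, 33.6 and 28.0 CPM to 23.4, 18.4, 20.2 and 13.8 CPM, with overlap, and 6 of 16 alternative analyses lost this call, among them those without control replicate 3 or 4 (-0.42 and -0.52) or without RUNX1T1 KO replicate 2 (-0.52).

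GFRA3, the artemin co-receptor (chromosome 5, 138252380 to 138274621, minus strand), was scarce in culture and stood higher in CPM in the xenografts. The deposited TPM values, which also divide by transcript length, did not show this for RUNX1T1 KO tumors. Their mean was 1.78 TPM, within the range of culture group means (1.66 to 4.54 TPM), and control tumors had 4.635 TPM. Other receptors also differed by scale. ALK means were 15.9 TPM in EV DMSO and 7.97 TPM in RUNX1T1 KO tumors, but 49.4 and 98.5 CPM. RET means in the same groups were 126 and 29.2 TPM, but 336 and 308 CPM. Levels set side by side between culture and xenografts therefore depend on the scale. Why the scales differ was not tested. In sh4 cells GFRA3 levels were 2.25, 2.28 and 1.98 CPM with DMSO and 3.24, 3.76 and 4.00 CPM with doxycycline. That is a separation of 0.75 on the log2 scale (adjusted p = 0.00198). In shAMB cells they were 1.55, 1.12 and 1.77 CPM against 1.41, 1.504 and 1.36 CPM and overlapped (log2 -0.05, adjusted p = 0.822), but with the GC content and length trends removed the difference was -0.71 (adjusted p = 0.00147). Control xenografts held 14.1, 18.1, 14.8 and 21.4 CPM, and RUNX1T1 KO tumors 8.12, 5.52, 7.04 and 5.04 CPM. All 4 of the latter were below all controls, a fall of 1.41 on the log2 scale (95% interval -1.83 to -0.99, adjusted p = 0.000238). The summed Schwann cell markers, of which 5 of 7 were tested, 2 falling and 1 rising, moved the same way in these tumors, from 6.94 to 10.2 CPM in controls to 4.02 to 4.83 CPM, and their part in the GFRA3 difference was not tested.

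**Figure D2:**
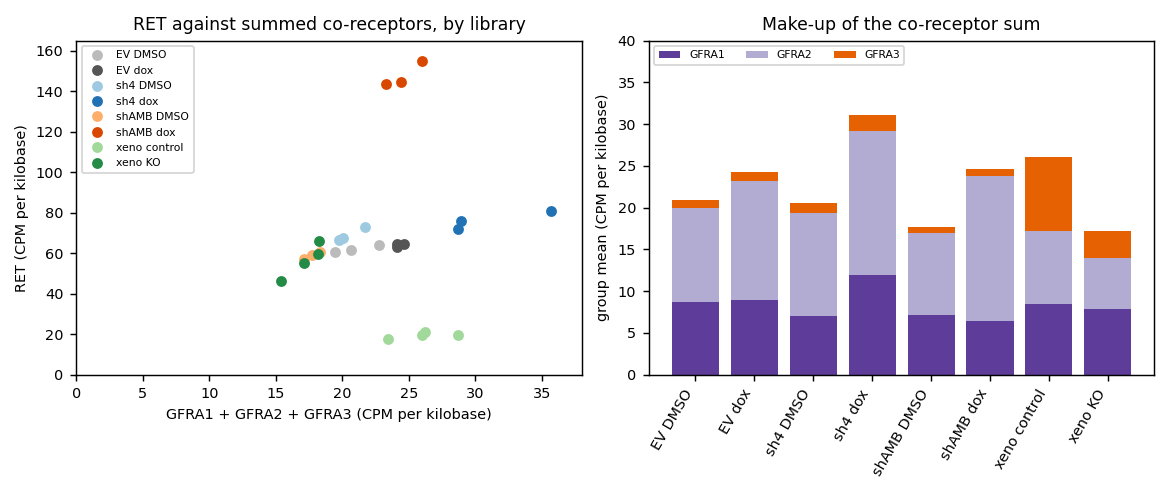
Left, RET against the sum of GFRA1, GFRA2 and GFRA3, both in CPM per kilobase, with 1 point per library. Right, mean CPM per kilobase of each co-receptor stacked by group. The 3 shAMB doxycycline libraries have a ratio of 5.92 to 6.16, and the 4 control xenografts a ratio of 0.687 to 0.795.

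Per kilobase of transcript, RET exceeded the summed co-receptors in all 6 culture groups. The ratio of RET to the GFRA sum was 2.97 ± 0.155 (SD, n = 3) in EV DMSO and 2.64 ± 0.0301 in EV doxycycline, 3.36 ± 0.00868 in sh4 DMSO and 2.46 ± 0.184 in sh4 doxycycline, and 3.32 ± 0.00989 in shAMB DMSO and 6.01 ± 0.132 in shAMB doxycycline. The ratio therefore stood lower with doxycycline in sh4 cells and higher in shAMB cells, with no overlap of libraries in either line. In EV cells it also stood lower with doxycycline without overlap, at 2.61 to 2.67 against 2.80 to 3.11. In xenografts it was 0.748 ± 0.0447 in controls and 3.28 ± 0.262 in RUNX1T1 KO tumors (n = 4 each). GFRA2 made up 53.5% to 70.8% of the co-receptor sum in culture and GFRA3 3.01% to 6.12%, whereas GFRA3 made up 33.8% in control xenografts and 19.2% in RUNX1T1 KO tumors. These ratios are a description of transcript levels and were not tested.

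The neurotrophin receptors were low, and the hairpins differed in which of them rose. NTRK2, the BDNF receptor (chromosome 9, 84668522 to 85027054, plus strand), had 25, 16 and 13 counts in sh4 DMSO libraries and 105, 126 and 89 with doxycycline, or 0.481, 0.315 and 0.318 CPM against 2.48, 2.45 and 2.18 CPM. These groups were widely separate (6.31-fold, log2 2.66, 95% interval 2.12 to 3.19, adjusted p = 5.3e-07). In EV cells the doxycycline libraries also lay above the DMSO libraries (0.876, 0.755 and 0.505 CPM against 0.365, 0.216 and 0.144 CPM), with a fitted change of 1.52 that missed the threshold (adjusted p = 0.122) and passed it with a replicate block (adjusted p = 0.0274) or with the GC content and length trends removed (adjusted p = 0.0218). In shAMB cells the levels were 0.370, 0.390 and 0.348 CPM with DMSO and 0.403, 0.297 and 0.208 CPM with doxycycline and overlapped. In xenografts NTRK2 was 2.45, 0.971, 0.896 and 1.69 CPM in controls and 3.68, 2.64, 1.81 and 4.23 CPM in RUNX1T1 KO tumors; the groups overlapped, the log2 difference was 1.04 (adjusted p = 0.0392), and 7 of 16 alternative analyses lost the call, 6 of which left out 1 library (log2 0.84 to 1.10).

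NTRK3, the neurotrophin-3 receptor (chromosome 15, 87859751 to 88256739, minus strand), had 9, 7 and 11 counts in shAMB DMSO libraries and 48, 70 and 43 with doxycycline, or 0.222, 0.182 and 0.294 CPM against 1.07, 1.22 and 0.992 CPM. The groups were separate (log2 2.23, SE 0.24, adjusted p = 1.0e-06). Before induction NTRK3 was already lower in shAMB DMSO than in EV DMSO (0.548, 0.620 and 0.749 CPM), with a log2 difference of -1.44 (adjusted p = 0.00827), which missed the threshold without EV DMSO replicate 3 (-1.32) and without shAMB DMSO replicate 1 or 2 (-1.41 and -1.30). In sh4 cells the levels were 0.288, 0.334 and 0.294 CPM against 0.496, 0.389 and 0.319 CPM, a difference of 0.39 that did not pass (adjusted p = 0.279). In xenografts NTRK3 was 1.60, 1.60, 1.07 and 1.81 CPM in controls and 4.15, 8.94, 6.09 and 4.96 CPM in RUNX1T1 KO tumors, all higher (3.96-fold, log2 1.99, adjusted p = 0.000224).

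NGFR, the p75 receptor (chromosome 17, 49495293 to 49515008, plus strand), was 0.862, 0.650 and 0.722 CPM in shAMB cells with DMSO and 1.61, 1.42 and 1.85 CPM with doxycycline, a separation of 1.12 on the log2 scale (adjusted p = 0.00083). Once trends with GC content and transcript length were removed, this became 0.02 and was not called. In sh4 cells NGFR changed by 0.50 (adjusted p = 0.0973), in EV cells by 0.64 (adjusted p = 0.672), and in the xenografts by -0.54 (adjusted p = 0.239), all with overlapping groups; the trend removal gave 0.79 in sh4 and -0.86 in the xenografts, both called (adjusted p = 0.00172 and 0.00145). Of its annotated exons 27.2% are overlapped by genes on the opposite strand, NGFR-AS1 among them, and whether strand was used in counting is not given in the sources used here, so its values are uncertain.

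**Figure D3:**
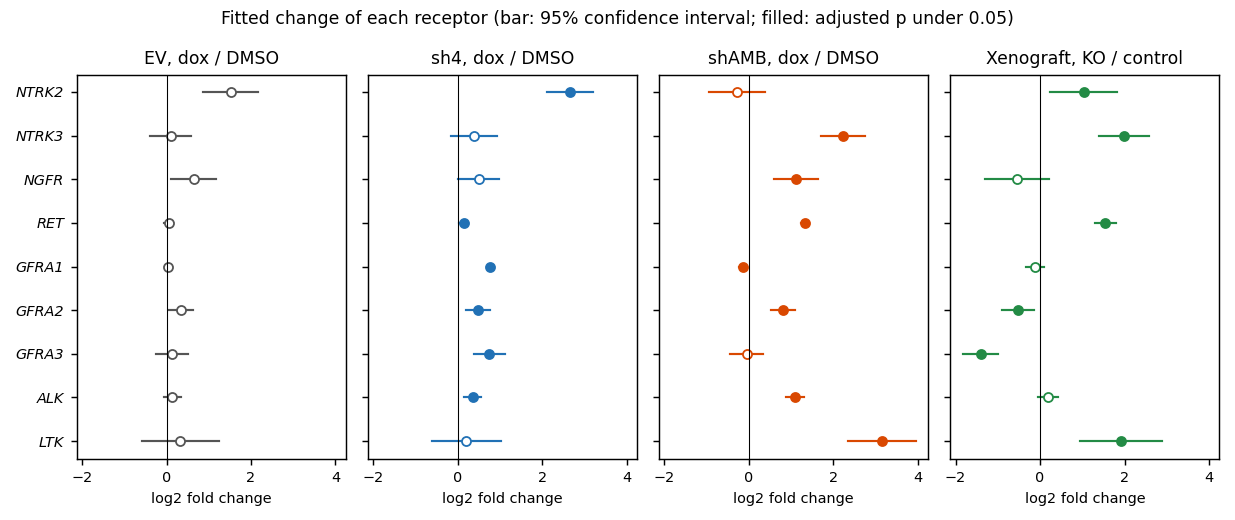
Fitted log2 fold change of each receptor in the 4 comparisons, with its 95% confidence interval (bar) and a filled point where the adjusted p was under 0.05. No point is filled for EV; RET is at 1.33 in shAMB and 1.54 in the xenografts, and NTRK2 is at 2.66 in sh4.

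Against the EV response to doxycycline, the sh4 response differed for 2 of 9 receptors (background 32.6% of genes): GFRA1 by 0.72 on the log2 scale (adjusted p = 1.5e-07) and NTRK2 by 1.14 (adjusted p = 0.0460), the latter call being lost in 12 of 20 alternative analyses, 8 of which left out 1 library, with values down to 0.69 without EV DMSO replicate 1. The shAMB response differed from the EV response for 6 of 9 (background 45.5%), higher for LTK by 2.83, NTRK3 by 2.14, RET by 1.28 and ALK by 0.95, and lower for NTRK2 (-1.80) and GFRA1 (-0.18). NTRK2 itself was not called lower in shAMB (-0.28, edgeR adjusted p = 0.443), and most of its difference was the EV rise of 1.52, which was not called. The GFRA1 difference missed the threshold with upper-quartile factors (-0.13, edgeR adjusted p = 0.0601). The responses of sh4 and shAMB differed for 7 of 9 (background 60.9%). NTRK2, GFRA1 and GFRA3 responded more strongly in sh4, by 2.94, 0.91 and 0.80, while LTK, NTRK3, RET and ALK responded more strongly in shAMB, with differences of -2.96, -1.84, -1.18 and -0.74. For NGFR and GFRA2 the intervals of that difference were -1.33 to 0.09 and -0.74 to 0.06, and their signs turned to 0.77 and 0.34 with the GC content and length trends removed. The same removal shrank the differences for RET, ALK and LTK to -0.39, -0.42 and -1.70, which were still called. All 3 contrasts share libraries. Between the uninduced lines, 1 receptor was called in sh4 DMSO against EV DMSO (GFRA1, background 1.12%) and 2 in shAMB DMSO against EV DMSO (GFRA1 and NTRK3, background 1.52%).

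On the per-kilobase scale RET (58.8 to 148 in culture group means) was followed by GFRA2 (9.89 to 17.4), and then by GFRA1 and ALK, whose libraries overlapped each other in the EV groups and in both hairpin lines with DMSO. GFRA2 and ALK overlapped in shAMB doxycycline. GFRA3 came next (0.738 to 1.90), except in shAMB doxycycline, where LTK stood at 0.941 and overlapped it. NTRK2, NTRK3, NGFR and otherwise LTK were below 0.5. In the control xenografts RET was at 19.5 and ALK at 13.8, and GFRA3, GFRA2 and GFRA1 followed at 8.86, 8.79 and 8.44 with overlapping libraries. In the RUNX1T1 KO tumors RET was at 56.7, ALK at 15.7 and GFRA1 at 7.81.

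Among the 13 listed ligands, 4 reached a mean of 1 CPM in any group, namely GDNF, BDNF and the growth factors MDK (midkine) and PTN (pleiotrophin), both of which have been described as ALK ligands. GDNF was higher with either hairpin induced and in the RUNX1T1 KO tumors. Its levels ran from 1.48 to 1.76 CPM in sh4 DMSO and 4.47 to 5.14 CPM in sh4 doxycycline, and from 1.39 to 2.39 CPM and 4.69 to 4.94 CPM in shAMB, with log2 changes of 1.56 and 1.42 (adjusted p = 2.4e-06 and 2.9e-06). In xenografts it ranged from 0.806 to 1.82 CPM in controls and 2.07 to 4.85 CPM in RUNX1T1 KO tumors, a change of 1.54 (adjusted p = 0.00244). In EV cells GDNF was 1.34 ± 0.200 CPM (SD, n = 3) with DMSO and 1.26 ± 0.228 CPM with doxycycline.

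BDNF, the ligand of NTRK2, changed little, by -0.32 in sh4 (adjusted p = 0.00905), 0.23 in shAMB (adjusted p = 0.0351) and 0.00 in the xenografts, at 9.65 to 12.8 CPM in the culture group means. PTN rose by 0.72 in sh4 and fell by 0.35 on the log2 scale in shAMB. MDK, at 94.8 to 174 CPM in culture, was not called there and fell by 1.38 on the log2 scale in the xenografts (adjusted p = 0.00118). Of the 6 ligands tested, 2 rose and 2 fell in sh4, 3 rose and 1 fell in shAMB, and 2 rose and 1 fell in the xenografts, where 40.9%, 66.0% and 41.1% of all genes were called.

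Of 18 ERK pathway targets and feedback genes, all tested, no gene passed with EV, where 8 had an unadjusted p under 0.05. Over all genes, 879 of 14905 did so. Before induction, 4 of the 18 were already called higher in shAMB DMSO than in EV DMSO (background 1.52%). In sh4 DMSO against EV DMSO, 1 was called higher (background 1.12%). In sh4 cells 9 rose and 4 fell, in shAMB cells 15 rose and 1 fell, and in the tumors 14 rose and 1 fell, where the shares of all genes called were 40.9%, 66.0% and 41.1% (EV 0.0939%). Their median log2 change was 0.04, 0.10, 1.17 and 1.28, against 0.01, 0.00, 0.10 and 0.02 over all genes tested. In shAMB cells EGR1, an immediate early transcription factor, rose by 4.75, the MAP kinase phosphatase DUSP4 by 2.07 and the Sprouty feedback inhibitor SPRY2 by 1.22, while SPRY1 fell by 0.38 on the log2 scale. In the xenografts DUSP5, a phosphatase of nuclear ERK, rose by 2.48, SPRY4 by 1.89 and DUSP4 by 1.46, while CCND1 fell by 0.46. In sh4 cells SPRY2, the ETS factor ETV1 and DUSP6 rose by 0.56, 0.65 and 0.55, while VGF, CCND1 and SPRED3 changed by -1.32, -0.15 and -0.67. A difference in response between sh4 and shAMB was called for 14 of the 18, with 12 higher in shAMB and 2 in sh4, against 60.9% of all genes.

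**Figure D4:**
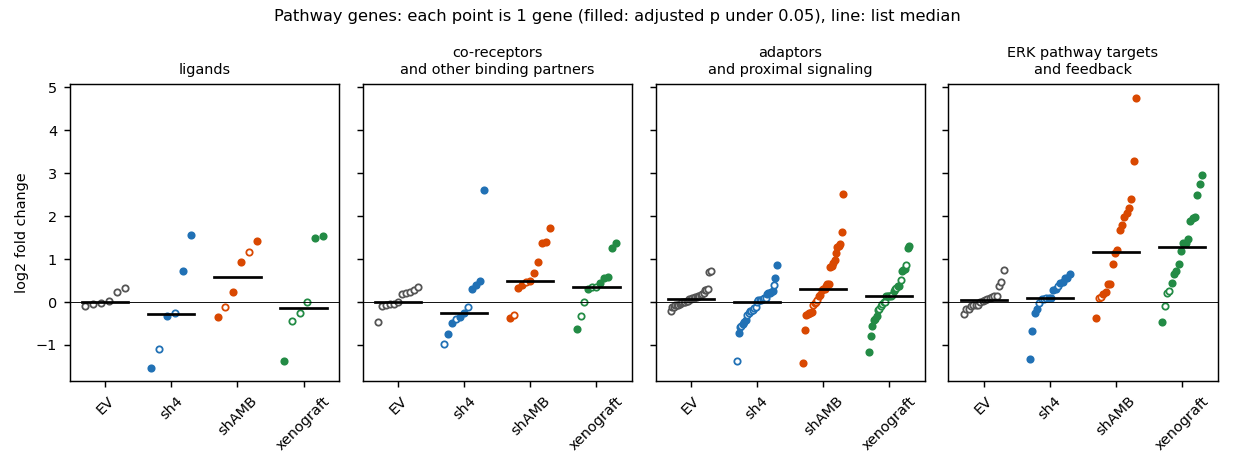
Fitted log2 fold change (y axis) of each tested gene in the ligand, binding partner, adaptor and ERK target lists, by comparison. Filled points passed an adjusted p of 0.05 and lines are list medians; the ERK target median is 1.17 in shAMB, 1.28 in the xenografts, 0.10 in sh4 and 0.04 in EV.

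Of 15 listed binding partners 11 were tested. In sh4 4 rose and 4 fell, in shAMB 8 rose and 1 fell, and in the xenografts 6 rose and 1 fell, with medians of -0.26, 0.48 and 0.36. Of all genes 40.9%, 66.0% and 41.1% were called, with medians of 0.00, 0.10 and 0.02. In EV 0 were called, and 0 had an unadjusted p under 0.05, against 879 of all 14905 genes. NCAM1, an alternative GDNF receptor, fell in sh4 (-0.49) and rose by 0.67 in shAMB. SORT1, the NGFR partner sortilin, rose by 0.48 in each hairpin line, and LRIG3 rose by 2.60 in sh4. SORCS1 fell in sh4 and in shAMB (-0.26 and -0.36). LRIG1, a negative regulator of receptor tyrosine kinases, rose by 0.92 in shAMB and by 1.36 in the xenografts, where SORCS2 rose by 1.27 and SDC3 fell by 0.64.

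Of 30 adaptors and proximal signaling genes 29 were tested. In sh4 7 rose and 6 fell, in shAMB 17 rose and 7 fell, and in the xenografts 8 rose and 6 fell, with medians of 0.01, 0.30 and 0.13, beside the same 40.9%, 66.0% and 41.1% called and medians of 0.00, 0.10 and 0.02 over all genes. In EV 0 were called, and 2 had an unadjusted p under 0.05, against 879 of all 14905 genes. The docking protein FRS2, which binds activated NTRK receptors and RET, rose by 0.86 in sh4 and 0.73 in the xenografts. GAB2, a scaffold for PI3 kinase and SHP2, rose by 1.63 in shAMB and 1.26 in the xenografts, with SHC4 rising by 1.15 and 1.31. GRB2, the link from receptors to SOS, fell in all 3 (-0.58, -0.65 and -0.56), as did the ubiquitin ligase CBLB (-0.50, -0.30 and -0.80). GRB10, an adaptor that binds RET, fell in shAMB and in the xenografts (-1.43 and -1.16).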

How the data were processed

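Members and gene lists were chosen with earlier results of these data known. Libraries were made by the authors, whose processing notes name STAR, SAMtools, RSEM and hg38, with no versions. The paper describes SMARTer Stranded Total RNA-seq v2 libraries and paired NovaSeq reads for its mouse ganglia. It names no library kit for the KELLY RNA. The annotation and the strand setting are not given in the sources used here. Deposited are expected counts per gene from RSEM (91.8% of culture and 91.0% of xenograft values were whole numbers) and TPM values, in tables for culture and for xenografts.

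Expected counts were rounded. Genes passing filterByExpr (14905 and 15960) were scaled by TMM and tested by edgeR 4.0.16 (glmQLFit, glmQLFTest, R 4.3.3), p-values being adjusted over all tested genes by Benjamini and Hochberg's method, with a threshold of 0.05. One fit covered the 18 culture libraries, and another the 8 xenograft libraries. There were 9 comparisons, 8 of them in culture; the fit was tested on simulated data for the sh4 and the xenograft comparison. Total counts were 35115908 to 62378057 per library, which leaves receptors under 1 CPM with few counts. Same-group libraries differed by more than sampling noise (chi-square per degree of freedom 1.80 or more). CPM used TMM-adjusted totals, and lengths came from the culture table.

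Named genes were all receptors, ligands with a mean of 1 CPM in a group, from each other list up to 3 genes per direction and comparison with the lowest adjusted p (mean of at least 1 CPM), and, for each receptor, the 3 genes of highest Pearson r over the culture libraries; some of these items are not reported here. ALKAL1, ALKAL2 and BEX3 were matched through older symbols. Alternatives were RLE and upper-quartile factors, no filter, DESeq2, limma-voom, a replicate block, leave-one-out, only the groups compared, TPM with a pseudocount of 0.1 by exact permutation, and removal of GC content and length trends (added after seeing the data).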

Additional observations from a re-analysis of the deposited data

Results flagged for a closer look

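In the tumors labelled RUNX1T1 KO, 1 of 4 libraries stood away from the others for each of 2 receptors. GFRA1 was 59.5 CPM in replicate 1, against 73.9 to 76.3 CPM in the others. ALK was 84.7 CPM in replicate 4, against 102 to 105 CPM in the others. Both gaps exceed Dixon's 95% critical value for 4 samples, which chance exceeds in about 1 in 20 groups. With 9 receptors in each of 2 xenograft groups, some gaps of this size are expected by chance.

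Responses to doxycycline that differed between lines by an interaction term of the edgeR fit were, on the log2 scale, NTRK2 (1.14) and GFRA1 (0.72) for sh4 minus EV. For shAMB minus EV they were NTRK2 (-1.80), NTRK3 (2.14), RET (1.28), GFRA1 (-0.18), ALK (0.95) and LTK (2.83). For sh4 minus shAMB they were NTRK2 (2.94), NTRK3 (-1.84), RET (-1.18), GFRA1 (0.91), GFRA3 (0.80), ALK (-0.74) and LTK (-2.96). These contrasts share libraries, so they are not independent of each other.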

How the results depend on the processing

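Of 1134 recomputed values for receptors, 1032 kept their direction and their side of the threshold, 59 lost a call, 21 gained one and 22 changed sign. For culture, 15 of the lost calls belong to the exact permutation test on TPM values, whose smallest possible p with 3 libraries a group is 0.1. The shAMB, shAMB minus EV, sh4 minus shAMB and xenograft counts stayed within 1.5 times. The EV count went from 0 to 1 with a replicate block and 1 with GC content and length trends removed. The sh4 count became 3 with only the groups compared. For sh4 minus EV the count of 2 became 1 with no filter, DESeq2 or only the groups compared, 5 with the trends removed, and 1 to 2 without single libraries. For sh4 DMSO minus EV DMSO it became 2 with upper-quartile factors, 3 with the trends removed and 0 with only the groups compared, and the 2 of shAMB DMSO minus EV DMSO became 1 with the trends removed, 0 with only the groups compared and 1 to 2 without single libraries.

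Signs changed with the trends removed for EV RET (-0.15), GFRA1 (-0.032) and GFRA3 (-0.086), for sh4 minus EV NGFR (0.42) and LTK (0.40), for shAMB minus EV NGFR (-0.35), and for sh4 minus shAMB NGFR (0.77) and GFRA2 (0.34). On TPM values, shAMB GFRA1 (0.033) and GFRA3 (0.14) did so. Without single libraries the ranges spanned 0 for NTRK3 (-0.047 to 0.30) and GFRA3 (-0.025 to 0.31) in EV, GFRA3 in shAMB (-0.22 to 0.091), and NGFR (-0.45 to 0.066), GFRA2 (-0.055 to 0.24) and LTK (-0.72 to 0.14) for sh4 minus EV. The cause of these changes was not tested. Over all genes, 5602 rose and 4238 fell in shAMB, against 4936 and 4853 with RLE factors, 6089 and 3879 with upper-quartile factors and 4238 and 6358 with the trends removed; in the xenografts 3382 rose and 3173 fell, against 4254 and 2480 with upper-quartile factors and 3312 and 5360 with the trends removed, and in sh4 3410 and 2681 against 3318 and 4985. The upper-quartile factors moved the median over all genes to 0.14 in shAMB and 0.12 in the xenografts.

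Replicate numbers are shared by label only. Deviations of same-numbered libraries correlated at -0.60 to 0.37, and not every library correlated best with its own number. With the replicate block the number of receptors called was 1 in EV, where NTRK2 (1.53) passed, 6 in sh4, 7 in shAMB, 7 for shAMB minus EV, where GFRA2 (0.47) passed, and 5 in the xenografts, where GFRA2 (-0.54) missed. Depth limits NTRK2, NTRK3 and LTK, which had 30 or fewer counts in each uninduced culture library.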

Other observations

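The genes most like each receptor across the 18 culture libraries were found by Pearson's r of log2 CPM, given as a description, since the libraries share 6 groups. For RET they included PPP1R13B (r = 0.99) and ASS1 (0.99). For ALK they were DIP2C (0.99), BRD1 (0.98) and INSRR (0.98), and for LTK SAFB2 (0.98), C17orf51 (0.97) and CPT1B (0.97). For NTRK2 they were FBXO21 (0.94), CCNE1 (0.94) and CDYL (0.94), for NTRK3 LOC101929705 (0.90), LINC00693 (0.89) and RASSF2 (0.88), and for NGFR GFRA2 (0.94), PHC1 (0.94) and CCDC137 (0.93). GFRA1 was most like ATP2A2 (0.95), CELF1 (0.94) and UNG (0.94), GFRA2 like CHAC1 (0.97), TLE3 (0.96) and SPSB4 (0.96), and GFRA3 like BCL9 (0.97), NCAPD2 (0.97) and ELAVL1 (0.95).

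Among the receptors themselves, RET, ALK and LTK were alike (r = 0.95 for RET with ALK, 0.96 for RET with LTK, 0.93 for ALK with LTK), as were GFRA1, GFRA3 and NTRK2 (0.81 for GFRA1 with GFRA3, 0.84 for NTRK2 with GFRA1, 0.77 for NTRK2 with GFRA3). NGFR and GFRA2 (r = 0.94) were also close to ALK, at 0.83 and 0.86, so the receptors do not split cleanly. RET and GFRA1 had r = -0.35.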
